A study of Homo sapiens with 4 samples.

Results

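The genes described here are the 123 of 39261 whose pathway annotation in the deposited tables lists the KEGG term Lysosome. The term marked the same 123 genes in both tables, all of them protein-coding. They were sorted by role into 53 hydrolases, 3 sphingolipid activators, 11 membrane glycoproteins, 14 transporters and channels, 10 proton pump subunits, 6 genes of the mannose 6-phosphate tag and its receptors, and 26 coat and adaptor genes. RNA was sequenced from 4 cultures of human breast cancer cells after lentiviral delivery of a construct, with 1 library per group. The triple-negative, mesenchymal line MDA-MB-231 received a construct for TMEM126A knockdown in 1 culture and a control vector in another. The line Ca1a, derived from MCF10A mammary epithelium and known to form carcinomas in mice, received a construct for TMEM126A overexpression in 1 culture and a control vector in another. The lines were grown in different media, MDA-MB-231 with fetal bovine serum and Ca1a with horse serum, insulin, EGF, cholera toxin and hydrocortisone. The sources used here do not say whether each culture was a clone or a pool.

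TMEM126A itself, the gene of a mitochondrial inner membrane protein, followed the labels, at 1.07 FPKM in the knockdown library against 35.5 FPKM in its control, and at 651 FPKM in the overexpression library against 17.3 FPKM in its control. The MDA-MB-231 libraries carried the mesenchymal marker VIM at 708 and 721 FPKM, knockdown and control, and the Ca1a libraries the epithelial marker EPCAM at 133 and 131 FPKM, overexpression and control. VIM was itself called lower in the overexpression library, at 74.8 against 90.5 FPKM in its control, and its part in the results below was not tested. Depth ranged between 20673373 and 21405193 reads per library. With 1 library per group there was no replicate check and no test between conditions. The 95% intervals given with ratios are exact conditional binomial intervals and cover counting error only. A ratio is that of normalized counts, treated library over control library. A gene was tested when the mean of both values was at least 20 normalized counts, and was called when the ratio was at least 1.2-fold either way and its interval left out 1. In bulk RNA, fewer cells with a transcript and less of it per cell cannot be told apart.

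Lysosomes are acidic organelles in which hydrolases break down proteins, glycans, sulfated sugars, lipids and nucleic acids delivered by endocytosis and autophagy. Most soluble hydrolases receive a mannose 6-phosphate tag in the Golgi and are carried onward by receptors, clathrin and adaptor complexes, while the vacuolar ATPase pumps in the protons that keep the lumen acidic. Transcription factors of the MiT family (TFEB, TFE3 and MITF) bind the CLEAR element, a palindromic motif near the start of many lysosomal genes, and secreted cathepsins are known from tumour invasion.

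The CLEAR element was searched for in the promoters. The motif is known from lysosomal genes, so a larger share among the members is not an independent result. Promoter sequences (250 bases before to 50 bases after the gene start, RefSeq, GRCh38.p14) were matched for 93 of the 123 genes, taking the first start listed for each gene. The 10-base motif, TCACGTGA with a G before it and a C after it, lay in 5 of the 93 (5.38%), against 0.381% of all 27305 promoters in the table and 0.736% of the 10871 promoters of genes tested in either comparison. Its 8-base core TCACGTGA, which every 10-base match also holds, lay in 11 of 93 (11.8%), against 1.04% and 1.88%. The 6-base centre CACGTG lay in 20 of 93 (21.5%), against 7.43% and 9.95%. All 3 motifs read the same on both strands. The core was in 3 of 6 promoters of the mannose 6-phosphate tag and receptor genes and in 0 of 21 promoters of coat and adaptor genes. The windows below, with the motif in capitals, show the genes with more than 1 copy and CTSA, the protease with the core. GNPTG is shown first as the only gene with the core that was called in either comparison. IGF2R held 3 copies, and GNPTG, GAA, MCOLN1 and LAMP1 held 2 each, of which 1 is shown.
GNPTG, chr16:1351907-1351936, plus strand: ggtccccgtgGTCACGTGACcgtcacttca
IGF2R, chr6:159968938-159968967, plus strand: gcgcgctgcgcTCACGTGAcccgggcctgg
IGF2R, chr6:159968996-159969025, plus strand: gaacaagggagTCACGTGAgcggggggcgg
IGF2R, chr6:159969042-159969071, plus strand: ccgggcggctGTCACGTGACgcggttccgg
GAA, chr17:80101493-80101522, plus strand: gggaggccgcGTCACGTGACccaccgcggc
MCOLN1, chr19:7522598-7522627, plus strand: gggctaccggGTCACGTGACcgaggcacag
LAMP1, chr13:113297199-113297228, plus strand: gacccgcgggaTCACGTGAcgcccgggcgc
CTSA, chr20:45891298-45891327, plus strand: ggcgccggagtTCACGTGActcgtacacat

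Calls among genes with the core in the promoter were too few to set apart from those of other genes. Of the 11, all tested, 0 were called higher and 0 lower in the knockdown library, with a median log2 ratio of 0.05, against 4 higher and 0 lower of 72 tested without it, with a median of 0.07. Of all genes tested 5.33% were called higher and 3.39% lower. In the overexpression library 1 was higher and 0 lower, with a median of 0.08, against 3 higher and 3 lower of 69 without it, with a median of 0.05. Of all genes tested 5.76% were called higher and 5.94% lower. These are descriptions of the window searched, and no match says only that the letters are not in it.

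**Figure D1:**
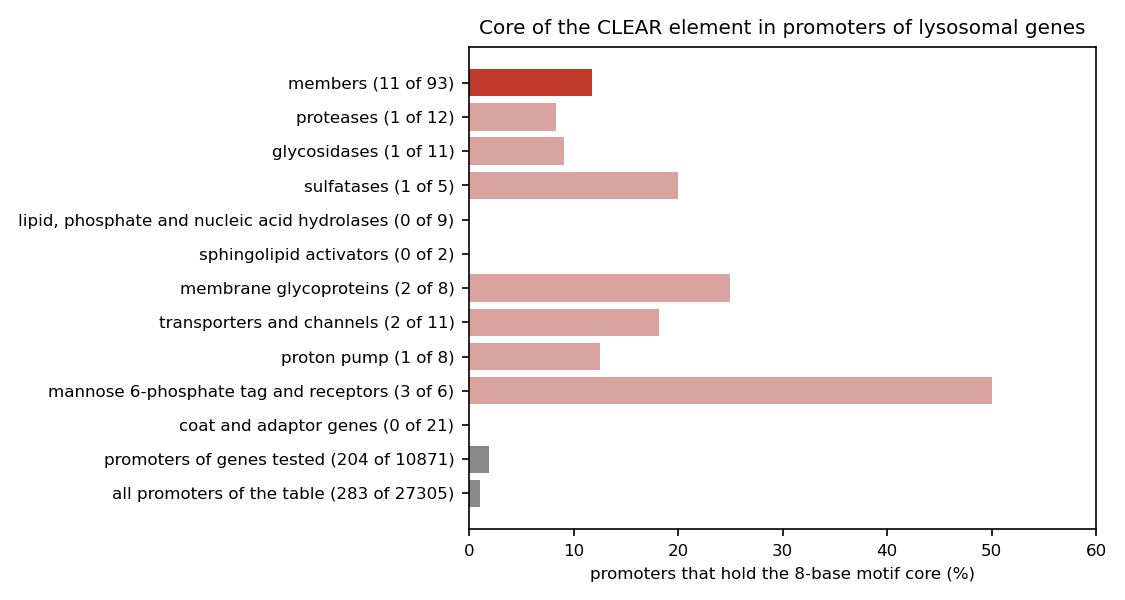
Share of matched promoters (x axis, percent) that hold the 8-base core, for all matched lysosomal genes, for each role, for promoters of genes tested in either comparison and for all promoters of the table, with counts in brackets. The mannose 6-phosphate tag and receptor genes have the largest share of the roles drawn, 3 of 6, and the lysosomal genes as a whole have 11.8%.

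Between the lines many of these genes differed by 2-fold or more, while between treated and control cultures 1 tested member, CTSW, did so in MDA-MB-231 and 0 in Ca1a. FPKM, the deposited level per transcript length and library size, on which genes can be compared, summed over the 123 genes to 4037 in the MDA-MB-231 control and 2949 in the Ca1a control. Of 104 members with a mean of at least 1 FPKM, 49 (47.1%) were at least 2-fold higher in the MDA-MB-231 control and 6 (5.77%) at least 2-fold lower. The same rule gave 25.1% higher and 13.3% lower among 11363 genes of the table. The counts by role given below for the control libraries are read against these shares. The median log2 FPKM ratio (pseudocount 0.1) was 0.88 for the members and 0.28 for all genes. With FPKM rescaled to a common median over genes, the members' median was 0.62, with 37 higher and 7 lower. Among genes with a mean of at least 5 FPKM, 41 of 86 members were higher, against 19.9% of 7414 genes. Line, medium and library cannot be told apart in this comparison. Normalized counts come from a separate table for each line, so where they are set side by side across the lines they are not on a shared scale.

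Hydrolases were the larger class in which this was most frequent. Of 41 hydrolase genes at this level, 27 (65.9%) were at least 2-fold higher in the MDA-MB-231 control and 2 lower, and their FPKM summed to 1833 in MDA-MB-231 against 710 in Ca1a. Coat and adaptor genes stood nearer to the table as a whole, with 6 of 23 higher and 3 lower (AP1M2, AP1S3 and AP3S2, the last with FPKM that its read counts do not match), a median log2 ratio of 0.35, and sums of 520 against 436 FPKM.

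Among the proteases, 9 of 13 were at least 2-fold higher in the MDA-MB-231 control and 1 lower. CTSD, the aspartic protease cathepsin D and the most abundant member in MDA-MB-231, stood at 804 and 705 FPKM in the knockdown and control libraries of MDA-MB-231, and at 350 and 306 FPKM in the overexpression and control libraries of Ca1a. It ranked 38th of all genes in the MDA-MB-231 control and 134th in the Ca1a control. CTSA, whose product protects beta-galactosidase and neuraminidase, stood at 93.9 and 86.6 FPKM in MDA-MB-231 (knockdown and control), and at 11.8 and 10.4 FPKM in Ca1a (overexpression and control). For both genes the 2 libraries of a line differed less from each other than from those of the other line. The 2 libraries of a line are a treated and a control culture, not replicates. The cysteine protease genes CTSZ and CTSB were 2.85-fold and 3.72-fold higher in the MDA-MB-231 control, TPP1, a tripeptidyl peptidase gene, 5.22-fold, and CTSF 15.0-fold. CTSS, the cathepsin of antigen processing, had 1142 and 1228 normalized counts in the knockdown and control libraries of MDA-MB-231 but 0 and 1 in the overexpression and control libraries of Ca1a. CTSV, a cathepsin of thymic and corneal epithelium, went the other way, at 0.438 FPKM in the MDA-MB-231 control against 10.8 FPKM in the Ca1a control.

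Of 15 glycosidase genes, 10 were at least 2-fold higher in the MDA-MB-231 control and 1 lower. HEXA, whose enzyme degrades gangliosides, stood at 33.8 FPKM in the MDA-MB-231 control and 23.2 FPKM in the Ca1a control, and GLB1, the beta-galactosidase gene, was 2.23-fold higher in the MDA-MB-231 control. FUCA1, the alpha-fucosidase gene, stood at 17.3 FPKM in the MDA-MB-231 control and 1.19 FPKM in the Ca1a control. GALC, whose enzyme degrades galactosylceramide, had 1437 and 1539 normalized counts in the knockdown and control libraries of MDA-MB-231, and 0 and 1 in the overexpression and control libraries of Ca1a. HYAL1, a hyaluronidase gene, had the reverse pattern, with 13.9 and 11.1 normalized counts in the knockdown and control libraries of MDA-MB-231, and 457 and 592 in the overexpression and control libraries of Ca1a.

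Of 6 sulfatase genes, 3 (50%) were at least 2-fold higher in the MDA-MB-231 control and 0 lower, against 25.1% and 13.3% of all genes. IDS, the iduronate sulfatase gene, stood at 35.1 FPKM in the MDA-MB-231 control and 3.14 FPKM in the Ca1a control. SGSH, a heparan sulfate sulfatase gene, was 5.89-fold higher in the MDA-MB-231 control. Among lipid, phosphate and nucleic acid hydrolases 5 of 7 were higher and 0 lower. PPT1, which encodes a thioesterase for palmitoylated proteins, stood at 39 FPKM in the MDA-MB-231 control and 13.3 FPKM in the Ca1a control, and LIPA, the acid lipase gene, at 33.1 FPKM in the MDA-MB-231 control and 15.2 FPKM in the Ca1a control. SMPD1, the acid sphingomyelinase gene, was 12.4-fold higher in the MDA-MB-231 control, ACP2, the lysosomal acid phosphatase gene, 6.59-fold, DNASE2, an acid endonuclease gene, 1.43-fold, and ASAH1, the acid ceramidase gene, 1.19-fold.

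PSAP, which encodes the precursor of the saposins that help hydrolases reach sphingolipids, ran against the hydrolases. It stood at 282 and 265 FPKM in the knockdown and control libraries of MDA-MB-231, against 820 and 798 FPKM in the overexpression and control libraries of Ca1a. In Ca1a it alone took 28.3% of the members' normalized counts with overexpression and 28.8% with the control vector, and in MDA-MB-231 6.81% in the knockdown library and 6.74% in the control. GM2A, the activator of ganglioside degradation, was 1.51-fold higher in the MDA-MB-231 control, at 14.1 against 9.34 FPKM.

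**Figure D2:**
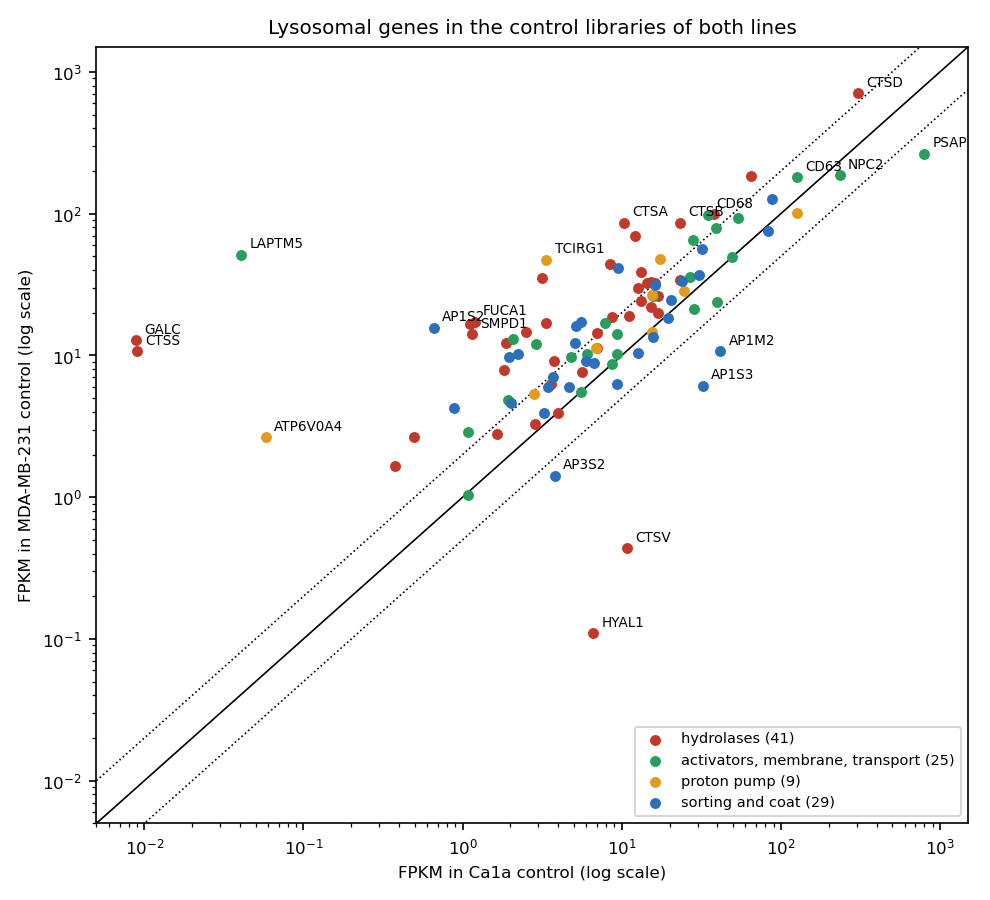
FPKM of the 104 lysosomal genes with a mean of at least 1 FPKM, in the MDA-MB-231 control (y axis) and the Ca1a control (x axis), both on log scales, coloured by role. The solid line marks equal levels and the dotted lines 2-fold. Most hydrolases lie above the upper dotted line, while PSAP, CTSV, HYAL1, AP1M2, AP1S3 and AP3S2 lie below the lower, the last with FPKM that its read counts do not match.

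CD68, a heavily glycosylated lysosomal membrane protein used as a macrophage marker, was expressed in all 4 libraries. It stood at 97.6 and 98.6 FPKM in the knockdown and control libraries of MDA-MB-231, and at 28.9 and 34.9 FPKM in the overexpression and control libraries of Ca1a. The control libraries differed 2.83-fold. Its GENCODE release 29 position is chr17:7579467-7582113, plus strand (GRCh38). Its normalized counts were 5471 after knockdown against 5424 in the control (ratio 1.01, interval 0.971 to 1.05). In Ca1a they came to 1655 with overexpression against 1963 in the control (ratio 0.843, interval 0.789 to 0.901), lower beyond counting error but short of 1.2-fold. Of 12 other macrophage markers, CD163, AIF1 and TYROBP are listed at 0 in every library. As with the members NEU1, PPT2 and CTSG, also listed at 0 throughout, these markers could not be judged. PTPRC, the pan-leukocyte gene, had 1.99 and 4.02 normalized counts in the knockdown and control libraries of MDA-MB-231, and 0 and 1 in the overexpression and control libraries of Ca1a. The 12 summed to 145 and 175 normalized counts in the knockdown and control libraries of MDA-MB-231, and to 405 and 394 in the overexpression and control libraries of Ca1a. Most of that sum came from CD14 and CSF1R, both lower in FPKM in the MDA-MB-231 control than in the Ca1a control. LAPTM5, a lysosomal membrane gene known mainly from blood cells, had 2639 and 2586 normalized counts in the knockdown and control libraries of MDA-MB-231, but 5 and 3 in the overexpression and control libraries of Ca1a.

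**Figure D3:**
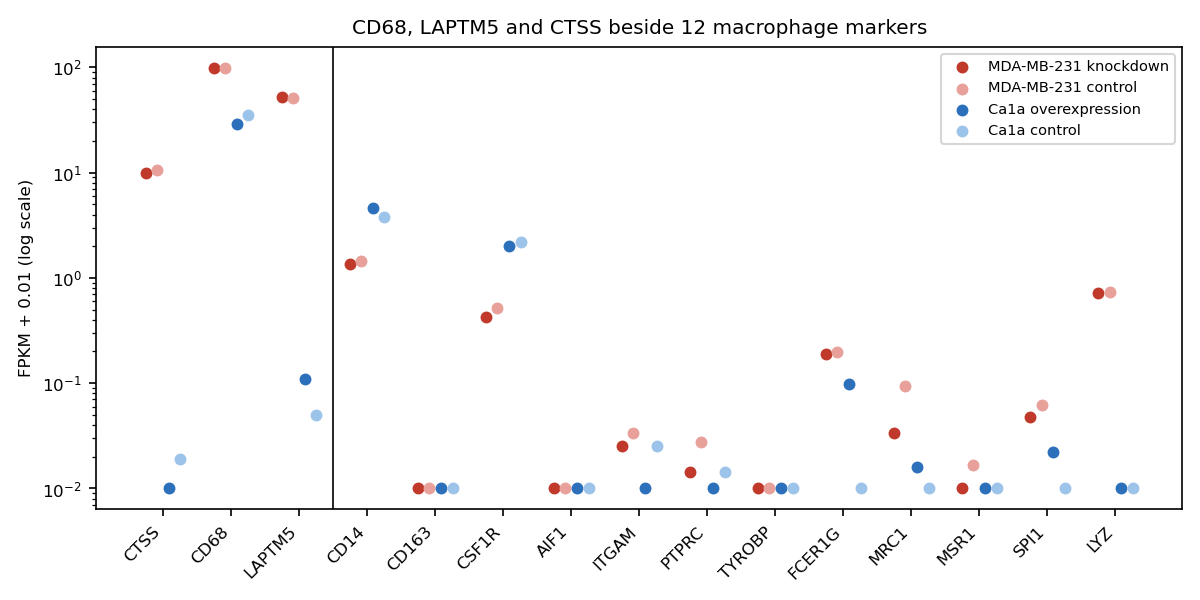
FPKM plus 0.01 (log scale) of CTSS, CD68 and LAPTM5, left of the line, and of 12 macrophage markers, right of it, in each of the 4 libraries. Points at 0.01 are listed at 0. CD68 lies between 28.9 and 98.6 FPKM. CD163, AIF1 and TYROBP are listed at 0 in every library and could not be judged.

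Several other membrane glycoproteins were closer between the lines. CD63, a tetraspanin of late endosomes, stood at 190 and 182 FPKM in the knockdown and control libraries of MDA-MB-231, and at 141 and 127 FPKM in the overexpression and control libraries of Ca1a. LAMP1, a major glycoprotein of the limiting membrane, was 2.03-fold higher in the MDA-MB-231 control and its relative LAMP2 1.67-fold. LAPTM4A, a small lysosomal membrane protein gene, was 1.74-fold higher. CD164, a sialomucin gene, and SCARB2, a sorting receptor gene of the lysosomal membrane, differed 0.999-fold and 1.32-fold. In all, 4 of 10 membrane glycoprotein genes (40%) were at least 2-fold higher and 0 lower, against 25.1% and 13.3% of all genes.

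Of 13 transporter and channel genes, 6 (46.2%) were at least 2-fold higher in the MDA-MB-231 control and 0 lower, against 25.1% and 13.3% of all genes. The cholesterol exporter genes NPC2 and NPC1 were not among them, at 187 and 21.1 FPKM in the MDA-MB-231 control against 234 and 28.4 FPKM in the Ca1a control. SLC17A5, the sialic acid exporter gene, was 6.2-fold higher in the MDA-MB-231 control, ENTPD4, a nucleotidase gene, 2.16-fold, and MCOLN1, the calcium channel gene of the lysosome, 4.16-fold.

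For the proton pump, most subunits in common use differed by less than 2-fold between the control libraries, while tissue-restricted forms were higher in MDA-MB-231. ATP6V0C, the proteolipid ring subunit, stood at 101 FPKM in the MDA-MB-231 control and 126 FPKM in the Ca1a control. ATP6V0B, another subunit of the membrane ring, stood at 28.3 FPKM in the MDA-MB-231 control and 24.7 FPKM in the Ca1a control, whereas the accessory subunit gene ATP6AP1 was 2.73-fold higher in the MDA-MB-231 control. ATP6V1H, a regulatory subunit, stood at 14.7 FPKM in the MDA-MB-231 control and 15.6 FPKM in the Ca1a control. TCIRG1, which encodes the a3 isoform that acts in osteoclasts, stood at 47.8 and 47.4 FPKM in the knockdown and control libraries of MDA-MB-231, and at 3.88 and 3.36 FPKM in the overexpression and control libraries of Ca1a. The control libraries differed 14.1-fold for this gene. ATP6V0A4, the a4 isoform of kidney, and ATP6V0D2, the d2 isoform of osteoclasts, had 284 and 121 normalized counts in the MDA-MB-231 control, against 6 and 1 in the Ca1a control. In all 3 of 9 pump genes (33.3%) were at least 2-fold higher and 0 lower, against 25.1% and 13.3% of all genes, so the share higher was near the background.

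Among the genes of the tag and its receptors, the large receptor gene IGF2R stood at 33.4 FPKM in the MDA-MB-231 control and 24.1 FPKM in the Ca1a control, and the smaller receptor gene M6PR at 31.6 FPKM in the MDA-MB-231 control and 16.3 FPKM in the Ca1a control. The sorting receptor gene SORT1 was 3.14-fold higher in the MDA-MB-231 control and GNPTG, a subunit of the enzyme that makes the tag, 3.16-fold, while NAGPA, which uncovers the tag, was 4.81-fold higher. Among the coat and adaptor genes, the medium subunits of adaptor complex AP-1 were reversed between the lines. AP1M1, the ubiquitous form, stood at 41.4 FPKM in the MDA-MB-231 control and 9.52 FPKM in the Ca1a control, whereas AP1M2, the epithelial form, stood at 10.7 FPKM in the MDA-MB-231 control and 41.6 FPKM in the Ca1a control. The small subunits were reversed too, with AP1S2 at 15.7 FPKM in the MDA-MB-231 control and 0.662 FPKM in the Ca1a control. AP1S3 stood at 6.13 FPKM in the MDA-MB-231 control and 32.4 FPKM in the Ca1a control. AP1S1, the common small subunit, was 0.92 times as abundant in the MDA-MB-231 control as in the Ca1a control. Clathrin genes CLTA and CLTC were 1.44-fold and 1.76-fold higher in the MDA-MB-231 control.

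When TMEM126A was lowered in MDA-MB-231, few lysosomal genes passed 1.2-fold. Of 112 tested members, 5 (4.46%) were called higher in the knockdown library and 2 (1.79%) lower. Among all 13292 genes tested 5.33% were called higher and 3.39% lower, so the members' shares were near the background. The members called higher were ABCB9, CTSF, GLA, LITAF and CTSB, and those called lower were CTSW and CTSK.

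ABCB9, a peptide transporter of the lysosomal membrane, had 318 normalized counts after knockdown against 215 in the control (ratio 1.48, interval 1.24 to 1.76). CTSF had 1110 after knockdown against 876 in the control (ratio 1.27, interval 1.16 to 1.39). GLA, the alpha-galactosidase gene whose loss causes Fabry disease, had 1169 after knockdown against 955 in the control (ratio 1.22, interval 1.12 to 1.33). An interval above 1 is part of the rule, so it holds for every member called higher. LITAF, an endosomal membrane gene, had 3190 after knockdown against 2617 in the control (ratio 1.22, interval 1.16 to 1.28). CTSB, the cysteine protease cathepsin B, had 12886 after knockdown against 10671 in the control (ratio 1.21, interval 1.18 to 1.24). With the libraries scaled by total reads, ABCB9 and CTSF were the 2 members still called higher.

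The 2 members called lower are scarce transcripts. CTSW, a cathepsin known from cytotoxic lymphocytes, had 27.8 normalized counts after knockdown against 59.4 in the control (ratio 0.469, interval 0.288 to 0.747). CTSK, the collagen-degrading cathepsin of osteoclasts, had 65.6 after knockdown against 102 in the control (ratio 0.645, interval 0.466 to 0.889).

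Smaller differences were more often upward. Without the fold requirement, 35 members (31.2%) stood above their control by more than counting error and 7 (6.25%) lower, against 16.8% and 11.3% of all genes tested. Intervals narrow as counts rise and many members are abundant. At a mean of 1000 normalized counts or more, 31 of 71 members (43.7%) were higher and 2 (2.82%) lower, against 25.3% and 16.2% of 5446 genes. Scaling by total reads gave 29 higher and 15 lower, against 11.9% and 16.7% of all genes tested. The median log2 ratio was 0.05 for the members and 0.01 for all genes, and 0.02 and -0.02 with total reads. By role the median was highest for the sphingolipid activators, at 0.18 on 2 genes, and the proteases, at 0.15 on 16 genes, and lowest for coat and adaptor genes, at -0.03 on 24 genes. CTSD had 35182 normalized counts after knockdown against 29900 in the control (ratio 1.18, interval 1.16 to 1.19), just under the rule. The coat genes below 1 beyond counting error were GGA3, AP1G2, AP3S1, AP4B1 and CLTCL1, with ratios of 0.902, 0.910, 0.865, 0.862 and 0.836. Those above 1 beyond counting error were AP1S1, AP3B1, AP1M1 and AP3D1, with ratios of 1.11, 1.07, 1.06 and 1.1, so 20.8% of 24 coat and adaptor genes were lower and 16.7% higher. Summed over the members, the knockdown library held 1.48% of normalized counts and the control 1.42%.

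**Figure D4:**
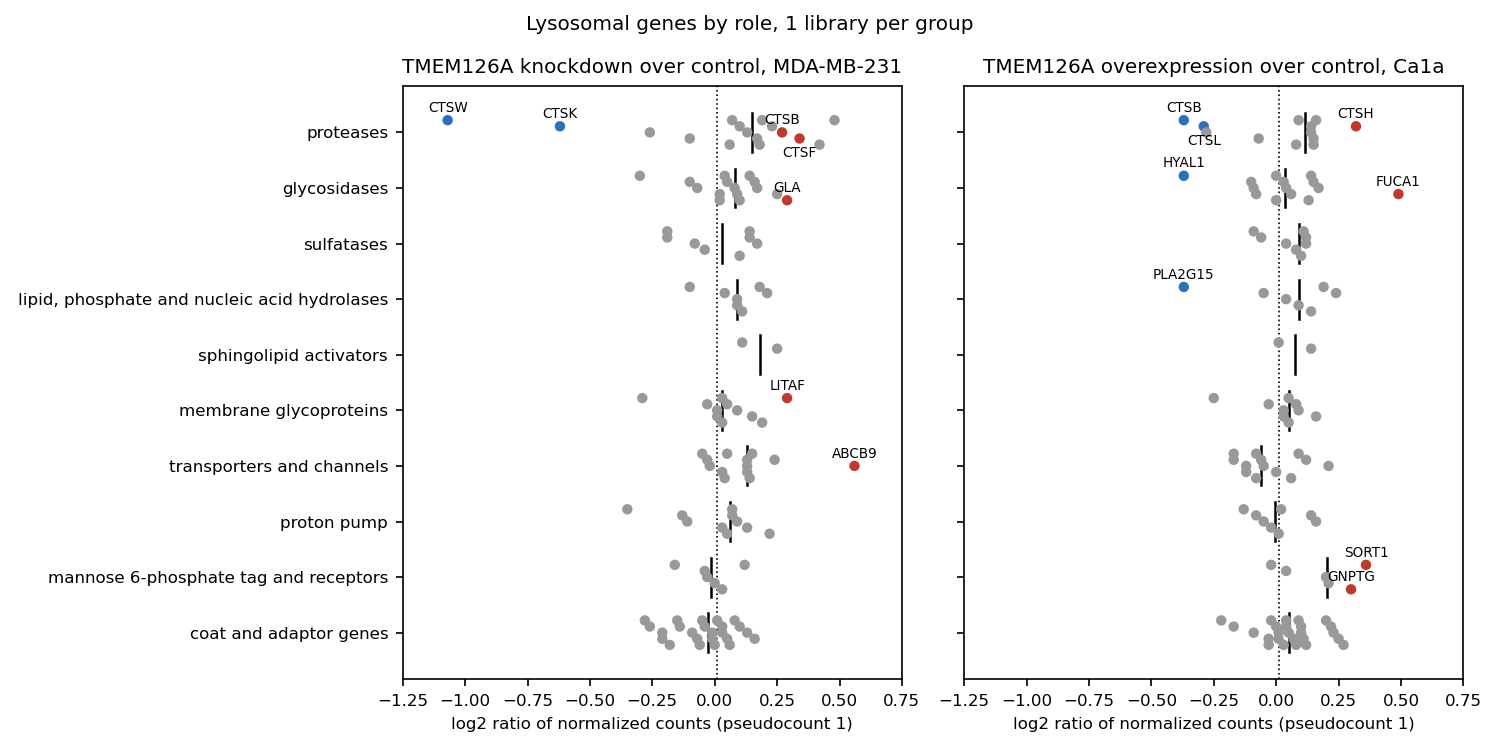
Log2 ratio of normalized counts (x axis, pseudocount 1) of each tested lysosomal gene, by role (y axis), for knockdown over control in MDA-MB-231 (left) and overexpression over control in Ca1a (right). Red points were called higher and blue lower, short black lines are the medians of each role and the dotted line is the median of all genes tested. Most points lie within 0.25 of 0 in both panels.

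When TMEM126A was raised in Ca1a, 4 of 104 tested members (3.85%) were called higher in the overexpression library and 4 (3.85%) lower. Among all 12111 genes tested 5.76% were called higher and 5.94% lower, so these shares too were no larger than the background. FUCA1, SORT1, CTSH and GNPTG were higher, and CTSB, CTSL, HYAL1 and PLA2G15 lower. None of the members passed 1.5-fold in this comparison, against 1.27% of all genes higher and 1.37% lower at that size.

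FUCA1 had 110 counts with overexpression against 78 in the control (ratio 1.41, interval 1.05 to 1.91). SORT1, the sortilin gene, had 1554 with overexpression against 1212 in the control (ratio 1.28, interval 1.19 to 1.38). CTSH, an aminopeptidase cathepsin, had 551 with overexpression against 442 in the control (ratio 1.25, interval 1.1 to 1.42). The interval of SORT1 was the narrowest of the 4 called higher. GNPTG had 214 counts with overexpression against 174 in the control (ratio 1.23, interval 1.0 to 1.51, with the lower bound just above 1), which was no longer called with any other scaling.

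CTSB had 2302 counts with overexpression against 2979 in the control (ratio 0.773, interval 0.732 to 0.816). CTSL, the endopeptidase cathepsin L, had 1260 with overexpression against 1544 in the control (ratio 0.816, interval 0.757 to 0.880). They were the 2 of 12 tested proteases (16.7%) lower beyond counting error, while 5 (41.7%) were higher. Of all genes tested 16.2% were lower and 18.1% higher beyond it. The median log2 ratio of the proteases was 0.11. HYAL1 had 457 with overexpression against 592 in the control (ratio 0.772, interval 0.682 to 0.874). PLA2G15, a lysosomal phospholipase A gene, had 212 with overexpression against 275 in the control (ratio 0.771, interval 0.641 to 0.926). Of 41 hydrolase genes tested these 4 (9.76%) were called lower and 2 (4.88%), FUCA1 and CTSH, higher. Of all genes tested 5.94% were called lower and 5.76% higher. Whether the hydrolases differ from the other members was not tested.

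Beyond counting error at any size, 24 members (23.1%) were higher in the overexpression library and 11 (10.6%) lower, against 18.1% and 16.2% of all genes tested. Among genes with a mean of at least 1000 counts, 18 of 50 members (36%) were higher and 8 (16%) lower, against 26.2% and 23.7% of 4831 genes. The median log2 ratio was 0.04 for the members and 0.01 for all genes. The tag and receptor genes had the highest role median, 0.21 on 6 genes, and the transporters and channels the lowest, -0.06 on 13 genes. NPC1 had 5480 counts with overexpression against 6150 in the control (ratio 0.891, interval 0.859 to 0.924), while its partner NPC2 had 4796 with overexpression against 4144 in the control (ratio 1.16, interval 1.11 to 1.21). Among the cholesterol exporter genes NPC1 was thus lower and NPC2 higher, each by less than 1.2-fold. The members held 1.04% of counts with overexpression and 1.02% in the control.

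CTSB was the only member called in both comparisons, higher in the knockdown library of MDA-MB-231 and lower in the overexpression library of Ca1a. In MDA-MB-231 the call ended with each of the other scalings and with FPKM, at ratios between 1.18 and 1.2, while in Ca1a it held with all of them. Its position is chr8:11842524-11869448, minus strand (GRCh38). No member was called in the same direction in both. Of 102 members tested in both comparisons, 44 (43.1%) had a ratio above 1 in both, against 28.2% of 11349 genes, and 8 (7.84%) a ratio below 1 in both, against 23.1%. Taken singly, 75 of 112 tested members were above 1 with knockdown and 68 of 104 with overexpression. Among all genes tested these were 7160 of 13292 and 6233 of 12111. Whether members were above 1 in both more often than these single shares give was not tested. The shares of members above 1 in 1 comparison and below 1 in the other were 24.5% and 22.5%, against 24.4% and 23.4% of all genes. With total reads 37.3% of members were above 1 in both, against 22.2% of all genes.

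**Figure D5:**
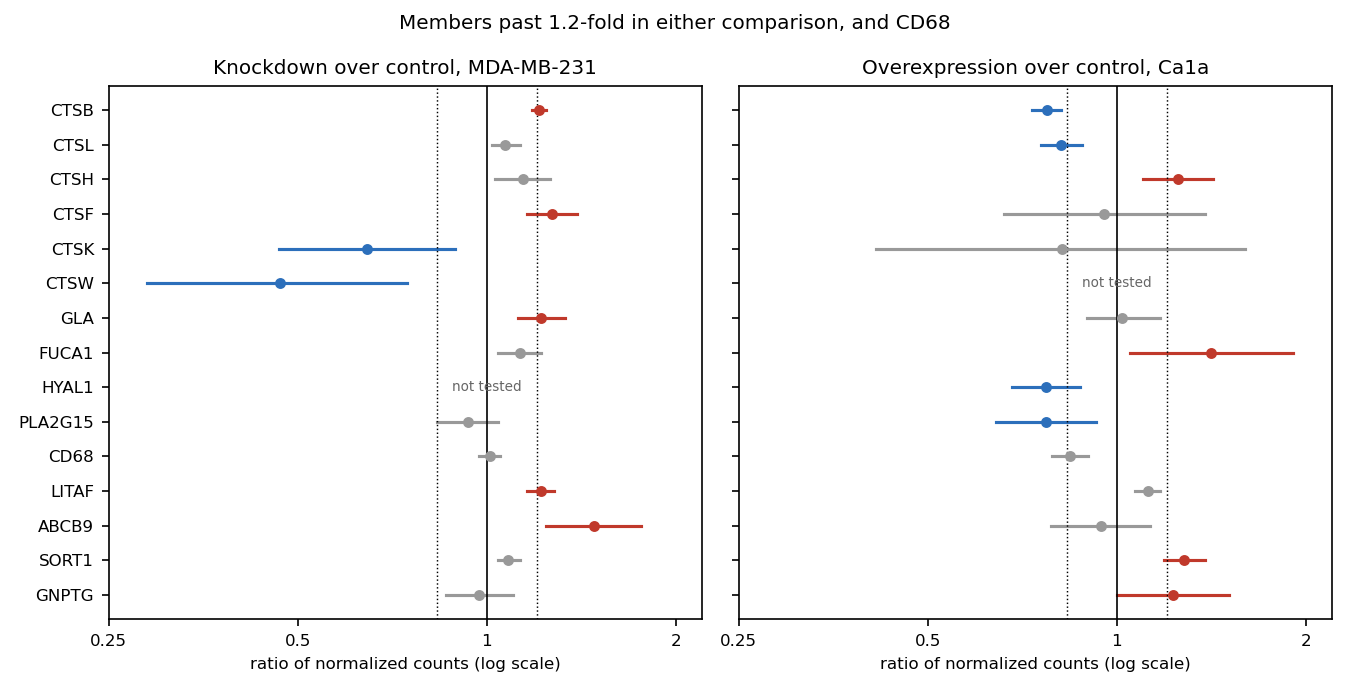
Ratio of normalized counts (x axis, log scale) with its 95% counting interval (lines) for the 14 members called in either comparison and CD68, knockdown over control in MDA-MB-231 (left) and overexpression over control in Ca1a (right). Red was called higher, blue lower and grey not called, with dotted lines at 1.2-fold. CTSB is the gene called on opposite sides in the panels.

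In the authors' deposited table, which gives DESeq p-values for 119 of the members in the knockdown comparison, 0 had an adjusted p under 0.05 and 6 an unadjusted p under 0.05, against 3.72% of all genes with a p-value. These 6, 5.04% of the members, were CTSB, CTSW, CTSF, ABCB9, LITAF and GLA. For the overexpression comparison the authors' deposited table holds 116 members, of which 0 had an adjusted p under 0.05 and 3 an unadjusted p under 0.05, SORT1, HYAL1 and CTSB. That is 2.59% of the members, against 3.61% of all genes.

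Lists of genes linked to lysosomes but outside the KEGG term are read against the same shares of all genes tested. These are 5.33% higher and 3.39% lower with knockdown, and 5.76% higher and 5.94% lower with overexpression. Of 11 further proton pump genes tested (V1 sector, V0 subunits ATP6V0E1 and ATP6V0E2, and the accessory subunit ATP6AP2), 0 were called higher or lower in the knockdown library. In the overexpression library 1 was higher, ATP6V0E2, with 169 counts against 115 in the control (ratio 1.47, interval 1.15 to 1.88). Of 16 tested MiT factors and genes of lysosomal nutrient sensing, 0 were called in the knockdown library. In the overexpression library the amino acid sensor gene SLC38A9 was higher, with 377 counts against 293 in the control (ratio 1.29, interval 1.1 to 1.5). RRAGD, the gene of a nutrient-sensing GTPase, was lower there, with 194 counts against 236 in the control (ratio 0.822, interval 0.676 to 0.998). TFE3 was the most abundant MiT factor, at 41.8 and 42.4 FPKM in the knockdown and control libraries of MDA-MB-231, and at 20.3 and 21 FPKM in the overexpression and control libraries of Ca1a. TFEB stood at 2.28 and 1.93 FPKM in MDA-MB-231 (knockdown and control), and at 3.46 and 3.70 FPKM in Ca1a (overexpression and control).

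Of 15 further genes linked to lysosomes and tested in MDA-MB-231, 0 were called. Of 14 tested in Ca1a 1 was lower, CLN6, whose product is not itself a protein of the lysosome. It had 511 counts with overexpression against 626 in the control (ratio 0.816, interval 0.725 to 0.919). GRN, the progranulin gene, was 5.89-fold higher in the MDA-MB-231 control than in the Ca1a control. Of the inhibitors of cysteine cathepsins, 3 of 6 tested in MDA-MB-231 were called higher and 1 of 4 tested in Ca1a lower, against 5.33% and 5.94% of all genes tested. The ubiquitous CST3 had 629 counts with overexpression and 859 in the control of Ca1a, a ratio of 0.732 (0.660 to 0.813), alongside the lower CTSB and CTSL. CST3 in MDA-MB-231 had 4423 normalized counts after knockdown against 3910 in the control (ratio 1.13, interval 1.08 to 1.18). The salivary cystatin genes were the 3 called higher. CST4 had 349 normalized counts after knockdown against 168 in the control (ratio 2.08, interval 1.72 to 2.51), and CST1 and CST2 had ratios of 1.79 and 1.52. All 3 are listed at 0 in Ca1a. They are similar in sequence, so their counts are uncertain.

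Some members could not be judged. NEU1, PPT2 and CTSG are listed at 0 in every library, and 11 members in MDA-MB-231 and 19 in Ca1a did not reach a mean of 20. GLA, ABCB9, CTSW and GNPTG overlap protein-coding genes of the other strand in GENCODE release 29, and the sources used here do not state a strand setting for the counting, so reads of overlapping genes cannot be told apart.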

How the data were processed

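RNA was read from 4 libraries, 1 per group, as grouped by the labels. Per the submitters' processing notes the tools were HISAT2, HTSeq, DESeq and Cufflinks, with the genome builds hg38 and GRCh38.p5, and no versions or roles are given. The authors deposited base means per gene for Ca1a, all whole numbers, which were taken here as read counts. The MDA-MB-231 table is, per the file headers, a signal of base means deposited by the authors, which are reads over a size factor, and of which 100% were whole multiples of the smallest value above 0 (tolerance 1e-06). FPKM come from a separate table the authors deposited. The authors' log2 fold changes were not used, and the authors' p-values were copied from the deposited tables.

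Ratios, exact conditional (Clopper-Pearson) 95% intervals and calls (1.2-fold, mean of at least 20, interval without 1) were computed over all genes, since 1 library per group allows no test, and were tested on simulated counts. The files hold a signal for MDA-MB-231 where read counts were foreseen, so reads were recovered by the size factor. Reads are not independent molecules, so intervals cover counting error only, and a count of 0 allows up to 3 reads. Named genes were CD68, every called member, the most abundant and most different members of each role, called genes of the lists outside the term, and members listed at 0. Some members are not reported here by name. Genes named for values near a threshold (CTSD, GGA3, AP1G2, AP3S1, AP4B1, CLTCL1, NPC1 and NPC2 in the treatment ratios) and others given as examples were chosen after their values were seen. The members and lists were chosen with earlier results of these data known. KCNE1 and NPC1L1, placed in the list of further genes linked to lysosomes, are not known as lysosomal genes, and neither reached the mean. Not every other gene of that list encodes a protein that resides in the lysosome, CLN6 among them. Promoters and positions were matched by Entrez gene ID. Alternatives were other folds, filters, scalings, pseudocounts, the mean and FPKM. Software was python 3.11.15, numpy 2.4.6, pandas 2.3.3, scipy 1.17.1, matplotlib 3.10.9, R 4.3.3 and edgeR 4.0.16 (TMM only).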

Additional observations from a re-analysis of the deposited data

How the results depend on the processing

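No paired analysis was possible because each group holds 1 library. In the knockdown comparison 21 members were called higher and 6 lower at 1.1-fold, 0 higher at 1.5-fold, and 0 higher and 1 lower at 2-fold. With total reads 2 were called higher. The count called lower was 6 with no counting interval, 5 with FPKM and 0 with a mean of at least 100. The members' median was 0.02 with total reads, where all genes stood at -0.02, and 15 members were lower beyond counting error. With a mean of at least 1000, 2 were lower beyond it. These last counts were chosen after seeing the data, as were protein-coding genes alone and the other scalings of the counts beyond counting error. In the overexpression comparison 16 members were called higher and 8 lower at 1.1-fold, 0 and 0 at 1.5-fold, and 0 and 0 at 2-fold. Between the control libraries 28 members were higher at 3-fold, and the median was 0.62 with FPKM rescaled. Other counts stayed within 1.5 times and other medians within their interval. Of the called members, CTSB, LITAF and GLA in the knockdown comparison, and CTSL and GNPTG in the overexpression comparison, fell short of the rule with at least 1 of the 3 scalings or FPKM, and none changed direction. Depth limits the scarce members: CTSK and CTSW do not reach a mean of 100 and were not tested with that filter.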

Other observations

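For 1 member the deposited counts and FPKM differ in kind. AP3S2, an adaptor subunit gene, had 4.97 and 5.03 normalized counts in the knockdown and control libraries of MDA-MB-231, and 5 and 2 in the overexpression and control libraries of Ca1a, while its FPKM stood at 1.89 and 1.42, and at 3.43 and 3.79, in the same order. Its FPKM in the MDA-MB-231 control would correspond to 174 reads over the longest annotated transcript. The gene overlaps the readthrough gene C15orf38-AP3S2 on the same strand. The cause of the difference was not tested.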
